A study of Mus musculus with 2 samples.

Results

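The enzymes and anchors of cyclic AMP signalling were examined in newborn mouse heads that carried a maternal or a paternal duplication of distal Chr 2. The members were chosen by gene symbol and comprise the adenylyl cyclases (Adcy), the cyclic nucleotide phosphodiesterases (Pde), the regulatory and catalytic subunits of protein kinase A (Prkar and Prkac), the A-kinase anchoring proteins (Akap), and the transcription factors Creb1 and Crem. They make up 57 of the 18193 genes named on the arrays, and 151 of 45037 probe sets. Of the 57 genes, 10 encode cyclases, 23 phosphodiesterases, 4 regulatory subunits, 2 catalytic subunits, 16 anchoring proteins and 2 transcription factors. The rule also names Atf1, whose probe set carries more than 1 symbol, so that it is no member. Pde4dip, which encodes a binding partner of phosphodiesterases, was left out.

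Each genotype was measured on 1 Affymetrix array with RNA of the whole head. In MatDp(dist2), the part of Chr 2 beyond the T(2:9)11H breakpoint was maternal in both of its copies, and the matching part of Chr 9 was paternal. In PatDp(dist2), the part of Chr 2 was paternal and that of Chr 9 maternal. Both are newborn offspring of carriers of this translocation. By design, copy number is the same in both, and the genotypes differ in the parental origin of the distal parts. With 1 array each, differences between animals, in sex or in exact stage cannot be told apart from genotype. How many animals were used per array, and of which sex, is not given in the sources used here. With 1 array per genotype there is no spread between replicates, so no test was made and each difference describes these 2 arrays.

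Cyclic AMP is made from ATP by adenylyl cyclases, which the stimulatory G protein encoded by Gnas activates and inhibitory G proteins restrain. It binds the regulatory subunits of protein kinase A and thereby frees the catalytic subunits, which phosphorylate enzymes, channels and factors such as CREB. Phosphodiesterases break the messenger down, and anchoring proteins hold the kinase close to particular substrates. Gnas lies in an imprinted cluster of distal Chr 2, and in the newborn its product is known for roles in brown fat, in hormone responses and in the brain.

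Signals are the deposited intensities, on a linear scale. A signal of 187 (the average of the arrays' 50th percentiles) served as the floor, since dim MAS5 signals are noisy. A gene is called measured where its brightest probe set reached the floor on at least 1 array, and 44 of the 57 members were. Where only 1 array reached the floor, its signal was divided by the floor, and the quotient is a bound, written as "at least". The other 13 members lay below the floor in both heads and have no ratio. They are Adcy8, Adcy10, Pde1a, Pde3a, Pde6a, Pde6b, Pde6c, Pde6g, Pde6h, Pde11a, Akap3, Akap4 and Akap14, and include the catalytic and inhibitory subunits of the photoreceptor phosphodiesterase and anchoring proteins of the sperm tail. Medians over all probe sets were 200.9 with MatDp(dist2) and 173 with PatDp(dist2), and 51.6% and 48.3% of probe sets reached the floor. Different probe sets differ in affinity, so levels are compared between heads and not between genes.

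As a whole, the machinery leaned to neither head. Of the 44 measured members, 21 had the higher signal with MatDp(dist2) and 23 with PatDp(dist2), and the median log2 ratio of MatDp(dist2) over PatDp(dist2) was -0.01, against 0.02 over all 12481 measured genes. Pde10a and Pde9a were at least 2-fold higher with MatDp(dist2), which is 4.55% of the members, against a background of 4.43% of all measured genes. Pde3b alone was at least 2-fold higher with PatDp(dist2), or 2.27%, against a background of 3.47%. Both shares are near the background, so the count of large differences does not set the members apart.

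At a smaller fold of 1.5, 6 members were higher with MatDp(dist2) (13.6%, background 12%) and 7 with PatDp(dist2) (15.9%, background 10.8%). Quantile normalization turned these counts to 6 and 5. The 6 were Adcy1, Adcy5, Pde1b, Pde9a, Pde10a and Prkar1b. The 7 were Adcy4, Adcy9, Pde3b, Pde8a, Prkar2b, Prkaca and Akap1. By signal alone, each of the families held genes that were higher with MatDp(dist2) and genes that were higher with PatDp(dist2).

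**Figure D1:**
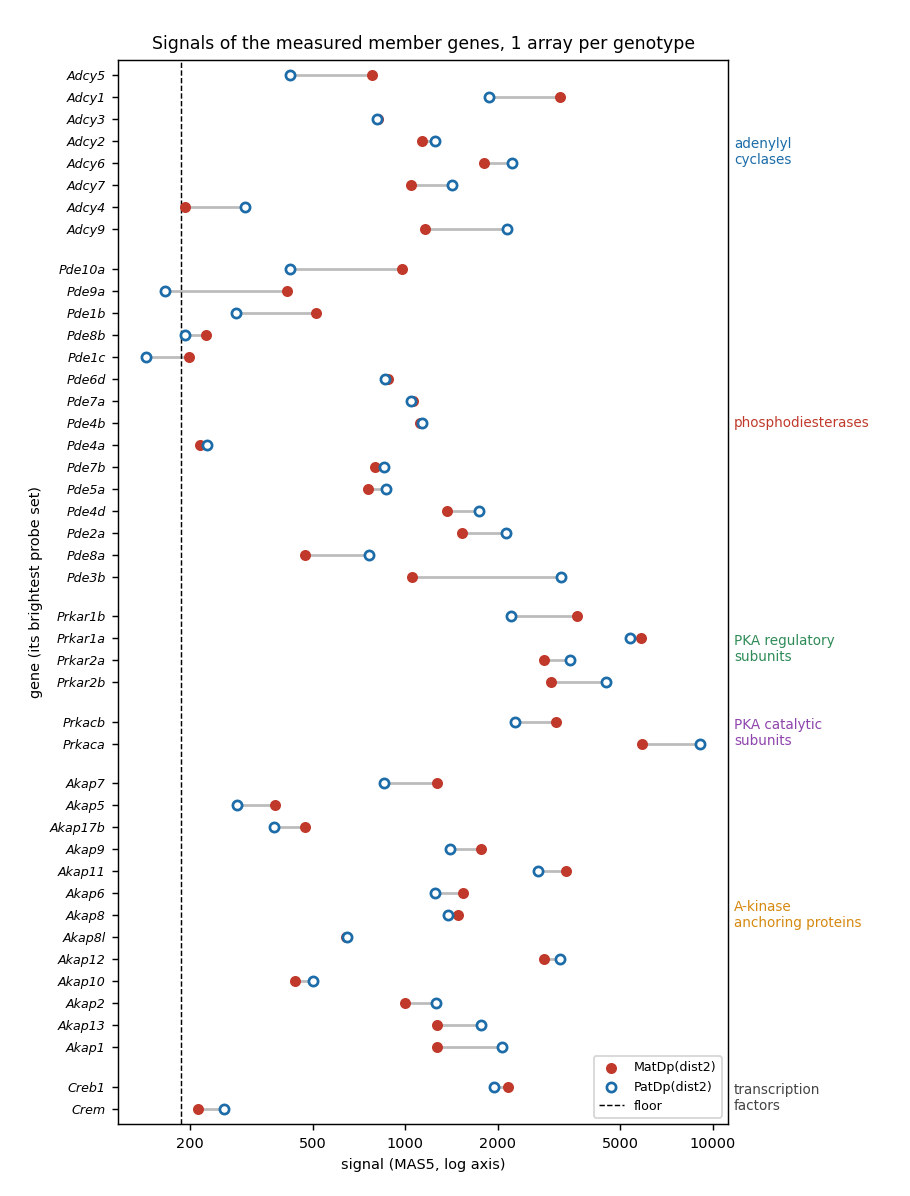
Signals of the 44 measured member genes on a log axis, each by its brightest probe set, with filled points for the MatDp(dist2) head and open points for the PatDp(dist2) head, 1 array each. Within each family the genes run from the highest ratio of MatDp(dist2) over PatDp(dist2) to the lowest, and Pde10a and Pde3b stand at the ends of the phosphodiesterases. The dashed line marks the floor of 187.

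Stretches of promoter are shown for members of the same family that differed in opposite directions, and for Pde10a, so that their start regions can be read beside the values. Each stretch holds the 120 bases before the most upstream transcript start in RefSeq's table for GRCm38.p6, 5′ to 3′ on the gene's strand. The promoter table holds 45 of the 57 members, and Pde3b and Pde9a are not among those 45. Capitals mark TGACG, the core shared by many variants of the cyclic AMP response element, on either strand (CGTCA on the other).
Pde10a (chr17:8801625-8801744, + strand): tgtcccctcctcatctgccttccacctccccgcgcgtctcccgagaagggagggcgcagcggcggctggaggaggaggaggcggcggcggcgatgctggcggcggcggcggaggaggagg
Adcy5 (chr16:35154744-35154863, + strand): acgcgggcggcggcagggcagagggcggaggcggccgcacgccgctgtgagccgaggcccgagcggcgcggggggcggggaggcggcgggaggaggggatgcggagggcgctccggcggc
Adcy9 (chr16:4420499-4420618, - strand): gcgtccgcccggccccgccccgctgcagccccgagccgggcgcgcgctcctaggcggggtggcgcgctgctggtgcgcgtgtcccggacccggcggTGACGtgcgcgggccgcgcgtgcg
Prkar1b (chr5:139150704-139150823, - strand): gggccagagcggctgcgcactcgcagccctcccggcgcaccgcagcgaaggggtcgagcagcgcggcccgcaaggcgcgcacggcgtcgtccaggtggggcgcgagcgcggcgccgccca
Prkar2b (chr12:32061278-32061397, - strand): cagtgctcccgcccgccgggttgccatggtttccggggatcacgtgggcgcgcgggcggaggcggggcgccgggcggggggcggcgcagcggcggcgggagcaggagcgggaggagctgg
Prkacb (chr3:146812947-146813066, - strand): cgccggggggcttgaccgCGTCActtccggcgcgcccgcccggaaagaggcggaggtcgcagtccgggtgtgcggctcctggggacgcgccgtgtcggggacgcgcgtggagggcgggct
Prkaca (chr8:83972858-83972977, + strand): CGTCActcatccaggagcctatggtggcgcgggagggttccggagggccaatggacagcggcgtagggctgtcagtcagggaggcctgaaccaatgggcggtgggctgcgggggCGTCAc
The stretches of Adcy9, Prkacb and Prkaca hold the core, and those of Pde10a, Adcy5, Prkar1b and Prkar2b do not. Over windows of 300 bases, 18 of 87 windows of the members hold it, or 20.7%, against 20.8% of all 32851 windows of the table. Counted per gene, 16 of 45 members (35.6%) have it in at least 1 window, against 23% of all 27025 genes, and the members have more windows per gene. The whole palindrome TGACGTCA, which contains the core on both strands, occurs in 2 windows of 1 member gene, Prkar1a, and in 1.79% of all windows. In the windows of Prkar1a it begins at offsets of 38 and -49 bases from the window's transcript start. The occurrence at -49 is shown in capitals with its flanks, and whether both are the same site was not analysed here.
Prkar1a (chr11:109650889-109650918, + strand): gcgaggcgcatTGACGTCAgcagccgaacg
These are matches of letters in a window and say nothing of binding. Prkar1a, with the whole element, had signals of 5824 with MatDp(dist2) and 5388 with PatDp(dist2).

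Among the cyclases, which make the messenger, 3 of 8 measured genes had the higher signal with MatDp(dist2) and 5 with PatDp(dist2). The median log2 ratio was -0.22, with a range of -0.88 to 0.88. None reached 2-fold.
Adcy5, the main cyclase of striatal neurons, had signals of 779 with MatDp(dist2) and 423 with PatDp(dist2) on its brightest probe set, 1455296_at, a 1.84-fold difference. Its other measured probe set, 1447696_x_at, had 525 and 476, only 1.10-fold, and the remaining probe sets 1443080_at (62.9 and 43.5) and 1439829_at (29.4 and 26.9) lay below the floor. The Adcy5 difference thus rests on 1 probe set.
Adcy1, a calcium- and calmodulin-stimulated cyclase of neurons, was 1.70-fold higher with MatDp(dist2), with signals of 3185 and 1871. The dim probe set 1445359_at of Adcy1 had 201 with MatDp(dist2) and 80.7, below the floor, with PatDp(dist2), which is the same direction.

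Adcy9, a broadly expressed cyclase, was lower with MatDp(dist2) on each of its 4 probe sets. Signals were 1164 with MatDp(dist2) and 2137 with PatDp(dist2) on 1418586_at (1.84-fold), 579.7 and 1053 on 1419811_at (1.82-fold), and 390.5 and 541 on 1449620_s_at (1.39-fold). On 1434454_at the signals were 179, below the floor, and 287, at least 1.53-fold. Of the cyclases, Adcy9 had the most probe sets that gave the same direction.
Adcy4 was 1.57-fold higher with PatDp(dist2), with a MatDp(dist2) signal of 192 just above the floor and a PatDp(dist2) signal of 302.
Adcy6, a calcium-inhibited cyclase, had 1804 with MatDp(dist2) and 2224 with PatDp(dist2), and Adcy7, a cyclase prominent in blood cells, had 1043 and 1420.1.
Adcy2 had 1138 with MatDp(dist2) and 1253 with PatDp(dist2). Adcy3, the cyclase of olfactory cilia, had 819 and 812, and its second measured probe set, 1436928_s_at, had 443.5 and 571, so that its probe sets lay on either side of 1.

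The phosphodiesterases, which remove the messenger, spread the most, with log2 ratios from -1.60 for Pde3b to 1.21 for Pde10a and a median of -0.02 over 15 measured genes. Pde3b, which is inhibited by cyclic GMP and in fat cells carries insulin's brake on lipolysis, had signals of 1056 with MatDp(dist2) and 3204 with PatDp(dist2), a 3.03-fold difference. It is represented by 1 probe set.
Pde10a, a dual-specificity enzyme abundant in striatal projection neurons, had 977 with MatDp(dist2) and 423 with PatDp(dist2), a 2.31-fold difference. Its second measured probe set, 1432490_a_at, had 195 and 94.6, a bound in the same direction. The other 3 lay below the floor, with signals of 172 and 97.3 (1458499_at), 46.6 and 78.5 (1419389_at), and 17.9 and 11.1 (1419390_at).

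Pde9a, which is specific for cyclic GMP, had 414 with MatDp(dist2) and 165, below the floor, with PatDp(dist2), at least 2.21-fold. Pde1b, a calmodulin-dependent enzyme of the brain, was 1.82-fold higher with MatDp(dist2), with 514 and 282. Pde9a and Pde1b each have 1 probe set.
Pde8a, a high-affinity enzyme for cyclic AMP, was 1.60-fold higher with PatDp(dist2), with 474 with MatDp(dist2) and 760.5 with PatDp(dist2). Its second probe set, 1418407_at, lay below the floor with 18.5 and 48.
Pde2a, which cyclic GMP stimulates, was higher with PatDp(dist2) on all 3 probe sets, with signals on the brightest of 1526 with MatDp(dist2) and 2132 with PatDp(dist2), a difference of 1.87-fold on 1447708_x_at (374 and 698) and 1.58-fold on 1452202_at (341 and 538.5). The brightest probe set of Pde2a gave the smallest of the 3 differences.

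The cyclic AMP-specific Pde4 genes, targets of rolipram, differed little. Pde4b had 1116 with MatDp(dist2) and 1130.5 with PatDp(dist2), Pde4d had 1368 and 1743, and Pde4a had 216 and 226. Of the other measured probe sets of Pde4b, 1422473_at had 569 and 642 and 1442700_at had 296 and 214, in opposite directions.
Pde7a, also specific for cyclic AMP, had 1063 and 1047 on its brightest probe set, and its other 5 measured probe sets were higher with MatDp(dist2), by 1.15-fold (a bound) to 1.34-fold. Pde7b had 797 with MatDp(dist2) and 856.5 with PatDp(dist2), Pde8b had 226 and 192, and Pde5a, the cyclic GMP-specific target of sildenafil, had 756 and 868.5. Pde6d, a carrier of prenylated proteins named for its copurification with the photoreceptor enzyme, had 881 and 861. Pde1c had 198 with MatDp(dist2) and 144, below the floor, with PatDp(dist2).

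**Figure D2:**
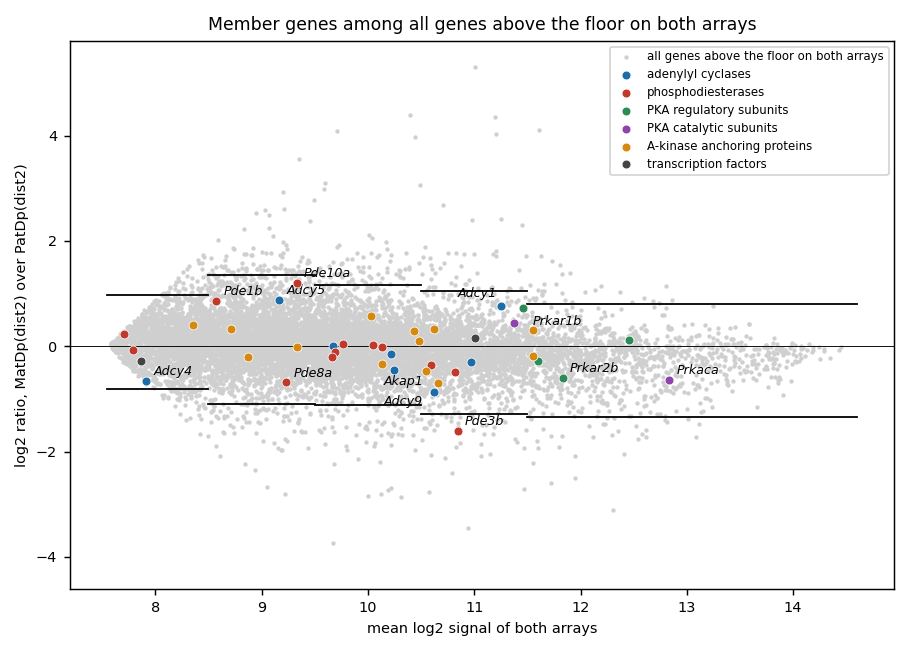
Log2 ratio of MatDp(dist2) over PatDp(dist2) against the mean log2 signal, for the 42 member genes above the floor on both arrays (coloured by family) and for all 11269 such genes (grey), 1 array per genotype. Black bars give the central 95% of all genes in each of the signal ranges, and only Pde3b lies outside them. Members at least 1.5-fold apart are named.

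How far each gene's ratio lay from those of genes of like brightness was read from the spread of all genes. Among the 1841 genes with a mean log2 signal of 10.5 to 11.5, the central 95% of log2 ratios ran from -1.29 to 1.05, and Pde3b, at -1.60, lay below it. Pde10a, at 1.21, lay inside the range of -1.09 to 1.36 found for the 3290 genes of 8.5 to 9.5. In all, 41 of 42 members above the floor on both arrays lay inside the range for their signal and 1 below it. The range holds the central 95% of all genes by its definition, so 1 of 42 outside it does not set the members apart. It holds true differences between the heads as well as noise.

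The PKA subunits lay on both sides, within the regulatory and within the catalytic pair. Prkar1b, the type I regulatory subunit of the brain, had signals of 3620.1 with MatDp(dist2) and 2202 with PatDp(dist2), a 1.64-fold difference. Its other probe sets gave the same direction, with 1911 and 996 on 1440132_s_at (1.92-fold), 1396 and 882.5 on 1440133_x_at (1.58-fold), and 1414 and 1175 on 1416753_at. On 1416754_at the signals were 228 with MatDp(dist2) and 30.6 with PatDp(dist2), and the PatDp(dist2) signal lay below the floor.
Prkar2b, the type II regulatory subunit of brain and fat, went the other way. It had 2969 with MatDp(dist2) and 4483 with PatDp(dist2) (1.51-fold), and 2075 and 3378 on 1438664_at (1.63-fold), and 1121 and 1550.3 on 1430640_a_at (1.38-fold). All 3 of its probe sets were higher with PatDp(dist2).

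Prkar1a, the type I subunit found in most cells, was 1.08-fold higher with MatDp(dist2) on its brightest probe set, and 1.26-fold higher with PatDp(dist2) on 1425550_a_at, with 3976.5 and 5020.5. The remaining probe set, 1447635_at, had 176, below the floor, with MatDp(dist2) and 190.2 with PatDp(dist2). Prkar2a, the other type II subunit, had probe sets on both sides: 2829 with MatDp(dist2) and 3425 with PatDp(dist2) on 1452915_at, 1996 and 1786 on 1428783_at, and 355 and 276 on 1427414_at. A further Prkar2a probe set, 1432409_at, lay below the floor with 31.5 and 31.4. No direction is given for either gene.
Prkaca, the catalytic subunit of most tissues, was 1.55-fold higher with PatDp(dist2), with 5865 with MatDp(dist2) and 9101 with PatDp(dist2), and 1.38-fold on its second probe set (2824 and 3897 on 1450519_a_at). Prkacb, the second catalytic subunit, which is prominent in brain, had 3098 with MatDp(dist2) and 2273 with PatDp(dist2), 1.36-fold higher with MatDp(dist2). Its other 2 probe sets lay below the floor.

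**Figure D3:**
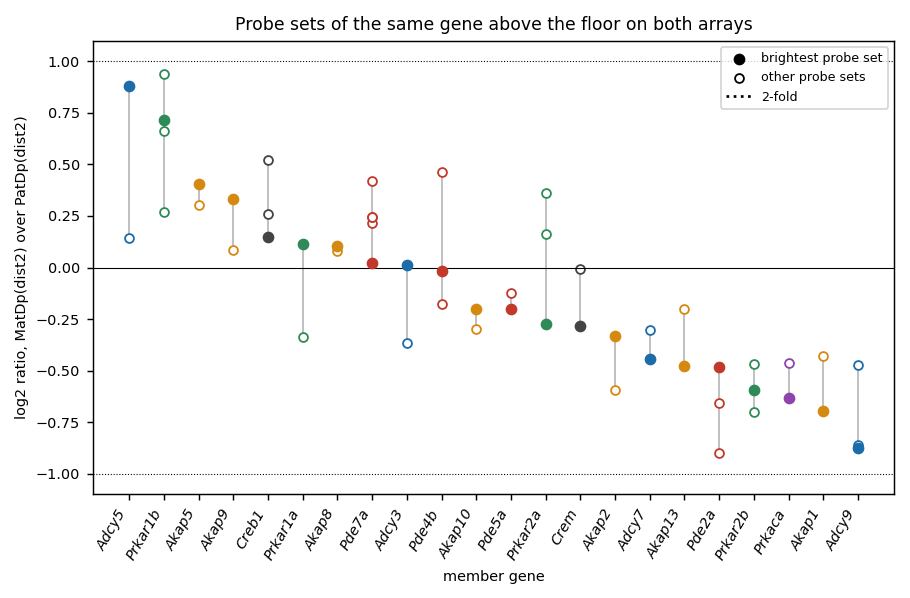
Log2 ratio of MatDp(dist2) over PatDp(dist2) for each probe set of the 22 member genes with at least 2 probe sets above the floor on both arrays, with the brightest filled. In 18 genes all such probe sets lie on the same side of 0. Adcy3, Pde4b, Prkar1a and Prkar2a cross 0.

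Probe sets of the same gene read the same RNA, so their disagreement shows how far probes and transcript forms alone can move a ratio. Over all 4368 genes with at least 2 probe sets above the floor on both arrays, the difference in log2 ratio between the 2 brightest had an SD of 0.41. Over the 22 such members it was 0.29. The probe sets of a gene all lay on the same side in 18 of the 22 members (81.8%) and in 59.4% of all such genes. This spread does not include differences between animals.

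The anchoring proteins differed less than the cyclases and the phosphodiesterases, with log2 ratios from -0.70 to 0.57 and a median of 0.10 over 13 measured genes. Their log2 ratios had an SD of 0.39 across genes, against 0.63 for the cyclases, 0.68 for the phosphodiesterases and 0.56 for all genes above the floor on both arrays. Akap1, which ties the kinase to the outer mitochondrial membrane, was 1.62-fold higher with PatDp(dist2), with 1268 with MatDp(dist2) and 2058 with PatDp(dist2). Its second probe set, 1418279_a_at, had 319 and 429, in the same direction.
Akap13 was 1.39-fold higher with PatDp(dist2) (1270 with MatDp(dist2) and 1770.3 with PatDp(dist2)). Akap2 had 1001 and 1260 on its brightest probe set and 439.6 and 664 on 1449168_a_at, where the difference was 1.51-fold. Akap12, also called gravin, had 2827 with MatDp(dist2) and 3194 with PatDp(dist2), and Akap10 had 438 and 503.

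In the other direction, Akap7, an anchor at calcium channels, had the largest ratio of the family, 1.49-fold, with 1271 with MatDp(dist2) and 854 with PatDp(dist2). Akap5, the anchor of the postsynaptic density, had 377.5 and 285 on 1 probe set and 295 and 239 on another, both higher with MatDp(dist2).
Akap9, a scaffold of centrosome and Golgi, had 1765 with MatDp(dist2) and 1403 with PatDp(dist2). Akap11 had 3334 and 2703, Akap6, an anchor at the nuclear envelope of muscle and nerve cells, had 1538 and 1251, and Akap17b had 471 and 374.
The nuclear anchor Akap8 had 1482 with MatDp(dist2) and 1381 with PatDp(dist2), and its relative Akap8l had 644 and 646.

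Of the factors that protein kinase A acts on, Creb1, which binds the cyclic AMP response element, was higher with MatDp(dist2) on all 3 measured probe sets. Its signals were 2164 with MatDp(dist2) and 1950.4 with PatDp(dist2) on the brightest, 2019.8 and 1689.5 on 1428755_at, and 299 and 208 on 1423402_at. Crem, whose locus also gives the repressor ICER, had 212 with MatDp(dist2) and 257 with PatDp(dist2), and 228 and 229.6 on another probe set, all near the floor.

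Few members lie on the chromosomes whose parental origin differed. A chromosome was found in RefSeq's gene table for 56 of the 57 members. Pde1a and Pde11a lie on Chr 2 and were below the floor in both heads, with 150 with MatDp(dist2) and 159 with PatDp(dist2) for Pde1a, and 30.2 and 77.6 for Pde11a. Prkar2a and Pde4a lie on Chr 9 and were 1.21-fold and 1.05-fold apart on their brightest probe sets. Whether these genes are distal of the breakpoint was not analysed here. All 13 members at least 1.5-fold apart lie on other chromosomes.

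Upstream of the cyclases, the G protein alpha subunits included 3 that were more than 2-fold higher with MatDp(dist2), Gnal, Gnao1 and Gnaz. The brightest Gnas probe set had 13786.5 with MatDp(dist2) and 14948 with PatDp(dist2), while 1427789_s_at, a probe set of the same gene, had 498 and 4.7, at least 2.66-fold. The inhibitory subunits Gnai1, Gnai2 and Gnai3 were at most 1.08-fold apart. Gnal, the stimulatory subunit of olfactory and striatal neurons, had 1479 with MatDp(dist2) and 498 with PatDp(dist2) (2.97-fold). Gnao1 had 1985 and 882 (2.25-fold) and Gnaz had 946 and 446 (2.12-fold). Of the 7 listed, 3 (42.9%, background 4.43%) were at least 2-fold higher with MatDp(dist2) and 0 (background 3.47%) with PatDp(dist2), with a median log2 ratio of 0.11. This list and those that follow were chosen with earlier results of these data known, so their shares describe the listed genes and test nothing.

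Of the receptors that stimulate cyclases, 21 of 28 listed were used and 9 were measured. Of the 9, 5 were above the floor on both arrays and 4 have only a bound. No ratio or bound reached 2-fold (background 4.43% with MatDp(dist2) and 3.47% with PatDp(dist2)). A bound cannot show that a gene was less than 2-fold apart. The median log2 ratio was 0.11 and is itself a bound. Pth1r, the parathyroid hormone receptor, had 1200.3 with MatDp(dist2) and 1044 with PatDp(dist2), and Calcrl, a receptor of vessels for adrenomedullin and CGRP, had 699 and 1193.
The PKA inhibitor Pkia had 4745 and 4770.5, and Pkig, on Chr 2, had 1522 with MatDp(dist2) and 2186 with PatDp(dist2), while Pkib lay below the floor. The median over Pkia and Pkig was -0.26.

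Other proteins that bind cyclic nucleotides had a median log2 ratio of -0.52 over 7 measured genes, of which 3 have only a bound. The Popeye proteins Bves (266 with MatDp(dist2) and 766 with PatDp(dist2), 2.88-fold) and Popdc3 (345 and 773, 2.24-fold), which bind cyclic AMP in muscle, were higher with PatDp(dist2). The channel gene Hcn3 was at least 2.26-fold higher with MatDp(dist2), with 424 and 45.2.
Of 6 measured guanylyl cyclases and cyclic GMP kinases 0 were 2-fold apart (background 4.43% with MatDp(dist2) and 3.47% with PatDp(dist2)), with a median of 0.20. Npr2, a natriuretic peptide receptor of cartilage, had 1049 and 1192.5, and Gucy1b1, a subunit of the nitric oxide receptor, had 1393 with MatDp(dist2) and 806 with PatDp(dist2).

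Downstream, 0 of 10 CREB coactivators and related factors had a ratio or bound of 2-fold (background 4.43% with MatDp(dist2) and 3.47% with PatDp(dist2)). Crtc2 has only a bound, with 189 with MatDp(dist2) and 158, below the floor, with PatDp(dist2). By signal, 5 were higher with MatDp(dist2) and 5 with PatDp(dist2), and the median log2 ratio was 0.00. Atf4 had 2690 with MatDp(dist2) and 3335 with PatDp(dist2), and Atf2 had 3142 and 2628. Of 8 measured phosphatases and PKA substrates 0 were 2-fold apart and the median was 0.11. With background shares this small, counts of 0 in such short lists do not set them apart. The phosphatase subunit genes Ppp2ca (9083.5 and 9909) and Ppp1cb (6264 and 5293) were the brightest. The hormone-sensitive lipase Lipe, a PKA substrate of fat cells that was picked out after its values were seen, had 551 with MatDp(dist2) and 1056 with PatDp(dist2), 1.92-fold.
Of 14 measured CREB target genes, 2 (14.3%, background 4.43%) were at least 2-fold higher with MatDp(dist2) and 2 (14.3%, background 3.47%) with PatDp(dist2), with a median of -0.29. The neuropeptide gene Sst had 969 and 372 (2.61-fold) and the nuclear receptor gene Nr4a3 had 515.5 and 179 (at least 2.75-fold), both higher with MatDp(dist2). Pck1, the gluconeogenic and glyceroneogenic enzyme on Chr 2, had 429 with MatDp(dist2) and 1330.2 with PatDp(dist2) (3.10-fold), and Ppargc1a, a coactivator of mitochondrial genes, had 394 and 1065 (2.71-fold).

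**Figure D4:**
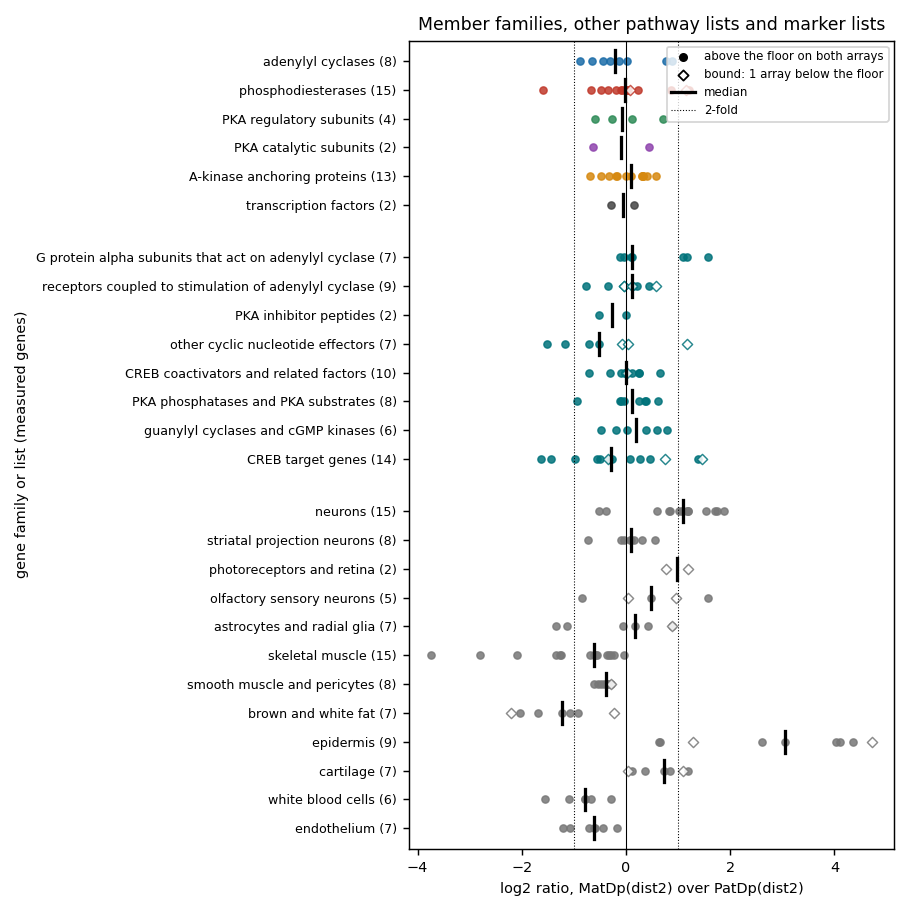
Log2 ratios of MatDp(dist2) over PatDp(dist2) for the measured genes of the member families, of the other pathway lists and of the marker lists, 1 point per gene, with the number of genes in brackets and a bar at the median. Open diamonds are bounds. The member families centre near 0, while neuron and epidermis markers have their medians to the right and fat and muscle markers to the left.

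Markers of several tissues differed between the heads as well. In whole heads, fewer cells of a type and less RNA per cell cannot be told apart. The marker lists, too, were chosen with earlier results of these data known. Of 15 neuron markers, 10 (66.7%, background 4.43%) were at least 2-fold higher with MatDp(dist2) and 0 (background 3.47%) with PatDp(dist2). Their median log2 ratio was 1.10, and their summed signals were 46203 with MatDp(dist2) and 24436 with PatDp(dist2). By signal, 13 of the 15 were higher with MatDp(dist2) and 2 with PatDp(dist2), Nefl (-0.51) and Nefm (-0.38). All 6 members at least 1.5-fold higher with MatDp(dist2) share this direction by their choice. Tissue descriptions were not given for every member, so the members were not sorted by tissue. The part of neurons in the members' differences was not tested. Markers of striatal projection neurons, by contrast, had summed signals of 10062 with MatDp(dist2) and 9765 with PatDp(dist2). Of the 8 measured, 0 were 2-fold apart (background 4.43% with MatDp(dist2) and 3.47% with PatDp(dist2)), and the median was 0.09. The defining striatal receptors Drd1 and Drd2 lay below the floor.

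Of 7 measured fat markers, 5 (71.4%, background 3.47%) were at least 2-fold higher with PatDp(dist2) and 0 (background 4.43%) with MatDp(dist2). Their median was -1.22, and their summed signals were 29042 with MatDp(dist2) and 69093.5 with PatDp(dist2). Lep lay below the floor in both heads. All 7 members at least 1.5-fold higher with PatDp(dist2) share this direction by their choice: Pde3b (-1.60), Adcy9 (-0.88), Akap1 (-0.70), Pde8a (-0.68), Adcy4 (-0.65), Prkaca (-0.63) and Prkar2b (-0.59). All 15 skeletal muscle markers were higher with PatDp(dist2), 6 of them 2-fold (40%, background 3.47%). Their median was -0.62, with sums of 112718 with MatDp(dist2) and 163347 with PatDp(dist2). All 8 measured smooth muscle markers (median -0.39), all 7 endothelial markers (-0.61) and all 6 measured white blood cell markers (-0.78) were higher with PatDp(dist2) as well. Their part in the members' differences was not tested.

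Markers of epidermis were higher with MatDp(dist2), with 7 of 9 at least 2-fold (77.8%, background 4.43%), a median of 3.05 and sums of 50917 and 6998. Those of cartilage had a median of 0.72 over 7 genes. Those of astrocytes and radial glia had 0.18 over 7, but ran from -1.34 for S100b and -1.14 for Aqp4 to 0.88 for Fabp7. By signal, 4 of these glial markers were higher with MatDp(dist2) and 3 with PatDp(dist2). The 5 measured markers of olfactory neurons had a median of 0.48, and Gnal (1.57) is itself such a marker. Of these 5, 2 are bounds, and 1, Ric8b (-0.85), was higher with PatDp(dist2). Omp and Cnga4 reached the floor on neither array. Of 10 photoreceptor and retina markers used, 8 lay below the floor in both heads, as did 5 of the 6 Pde6 genes, and the 2 measured, Otx2 and Rlbp1, had bounds above 1.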

How the data were processed

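RNA of newborn heads was measured on 2 Affymetrix arrays, 1 per genotype. The deposited values are intensity signals per probe set on a linear scale, made by the authors with MAS5 and GCOS, per the submitters' processing notes, with no versions named. Both arrays had a mean signal of 500.002 after the lowest and highest 2% were trimmed, so they were scaled alike before deposit. Mismatch correction makes low MAS5 signals noisy, and detection calls were not used here. Without the 64 control probe sets, 34945 had 1 symbol in the platform annotation, and names were updated through RefSeq's gene table for GRCm38.p6. The 932 probe sets with several symbols and 9160 unlisted ones were not named.

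Each gene stands with its probe set of highest mean log2 signal, and its ratio is MatDp(dist2) over PatDp(dist2) with the floor in place of lower signals. Shares count bounds as well. Every measured member is named, with every probe set for genes of which 1 measured probe set was 1.5-fold apart or whose probe sets opposed each other by 1.2-fold each. From each other pathway list the genes 2-fold apart are named, or else the 2 brightest. The members and lists were chosen with earlier results of these data known. Depth does not apply to arrays, and their number limits the precision. Alternatives changed the scaling, floor, offset, probe set choice and fold. The ratio and bound calculation was tested on simulated data. The changes were planted only in probe sets well above the floor, so dim members and small differences were not covered. Python 3.11.15, pandas 2.3.3 and statsmodels 0.14.6 were used.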

Additional observations from a re-analysis of the deposited data

How the results depend on the processing

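The count of members at least 2-fold higher with MatDp(dist2) was 2 under a loess fit, quantile normalization, median centring and the floor at the 30th percentile. It was 1 with the floor at the 70th percentile, with an offset of 100 and with the mean over probe sets, where Pde10a was left and Pde9a, dim with PatDp(dist2), was not. At a 1.5-fold threshold it was 6, and at 3-fold 0. The count higher with PatDp(dist2) was 1, Pde3b, under each of these 7 alternatives and at 3-fold, and 7 at 1.5-fold. The 1.5-fold counts of 6 with MatDp(dist2) and 7 with PatDp(dist2) changed to 6 and 5 under quantile normalization and a loess fit, 6 and 4 with the offset, 4 and 6 with the 70th-percentile floor and with the mean over probe sets, and 7 and 7 with the 30th-percentile floor, so which head had more depends on the setting. The median log2 ratio of the members ran from -0.09 to -0.01. All 13 members at least 1.5-fold apart kept their sign under every alternative that gave them a value, as did 25 of the other 31. A changed floor or an offset cannot reverse a sign, so only the scaling and the probe set choice could have done so. Adcy3, Pde4b, Pde6d, Pde7a, Prkar1a and Prkar2a, all close to 1, did not. Of 298 values of single genes under the alternatives, 1 moved by more than the spread between probe sets of a gene: Pde1b was at a log2 ratio of 0.15 with the floor at the 70th percentile, where its PatDp(dist2) signal falls below the floor and only a bound is left. Prkaca was under 1.5-fold in 3 of the 7 alternatives, as was Prkar2b. No paired analysis was possible because there is 1 array per genotype, and for the same reason no replicate could be left out. Signals below the floor and the lack of replicates limit every value.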

Other observations

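Pde4dip, which encodes the scaffold myomegalin and is no phosphodiesterase, had probe sets of both directions. Its brightest, 1417626_at, had signals of 3307 with MatDp(dist2) and 7191 with PatDp(dist2), a 2.17-fold difference. On 1433761_at the signals were 1406 and 1158, higher with MatDp(dist2), and on 1456413_at they were 701 and 926. Which transcript forms these probe sets read was not analysed here.

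The probe set named for both Atf1 and its pseudogene had signals of 864 with MatDp(dist2) and 1259 with PatDp(dist2), and reads of the gene and of the pseudogene cannot be told apart there. Pde12, a mitochondrial RNA phosphodiesterase that does not act on cyclic AMP, had 721 with MatDp(dist2) and 621 with PatDp(dist2).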
